A study of Mus musculus with 6 samples.

Results

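Interferon-stimulated genes and genes of the interferon regulatory factors (Irf) were followed in RNA-seq of 6 mouse samples whose labels name the cells as megakaryocytes, which shed platelets. The members were chosen by name: protein-coding genes whose symbol starts with Ifit (which takes in Ifitm), Ifih, Oas or Isg, or with Ifi or Gbp followed by a digit, or with Irf followed by a single digit, or is Mx1, Mx2 or Usp18. This gave 66 of the 55573 genes in the deposited table, of which 58 had enough reads to be tested. Of the 6 samples, 3 were from Abcc4-/- mice and 3 from wild-type (WT) mice. Abcc4 encodes a membrane pump known to export cyclic nucleotides and the drug 6-mercaptopurine, and the labels give a genotype and no treatment. Strain, age, the form of the deleted allele and the way the cells were selected are not given in the sources used here, beyond CD41, a megakaryocyte surface protein, in the sample titles. Whether samples of one genotype are separate animals is not stated, and the p-values cover only the spread among these 6 samples, part of which may be technical.

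Interferons are secreted proteins that warn cells of infection. Type I interferons act through Ifnar1 and Ifnar2, and type II interferon (interferon gamma) through Ifngr1 and Ifngr2. Kinases of the JAK family then activate STAT proteins: after type I interferon a STAT pair that holds Stat2 joins Irf9 to bind the interferon-stimulated response element (ISRE), and after type II interferon a STAT pair binds the gamma-activated site (GAS). Genes behind these elements encode antiviral proteins such as the Ifit, Oas and Mx families, and the guanylate-binding proteins (Gbp) that attack vacuoles of intracellular microbes. Megakaryocytes carry interferon receptors, and interferon treatment is known to lower platelet numbers in patients.

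The libraries held 67009925 to 99294493 counts in Abcc4-/- and 50440239 to 55123512 in WT. A count of 3 corresponded to 0.0304 to 0.0453 CPM (counts scaled to library size) in Abcc4-/- and 0.0546 to 0.0591 CPM in WT, and this limit covers counting error only. Abcc4 itself stood at 61.0 ± 1.13 CPM in Abcc4-/- and 73.9 ± 1.96 CPM in WT (SD, n = 3), which cannot check the genotype where a deletion leaves most of the transcript. The 10 megakaryocyte markers were all detected, and summed to 194 to 233 CPM in Abcc4-/- against 281 to 336.5 CPM in WT. Of them, 7 were lower and 1 higher in the test below, where 8.68% of all genes were lower and 8.61% higher. The 10 neutrophil markers summed to 38363 to 40962 CPM in Abcc4-/- and 21700.2 to 28269.5 CPM in WT, with 7 higher and 1 lower. Neutrophil transcripts were thus far more abundant than megakaryocyte transcripts in all 6 libraries, and the values below are for the samples as labelled. Abcc4-/- replicate 3 was the lowest of the 6 libraries for 34 of the 58 members tested, 14 of 17 type I induced members among them. Over all genes tested it was the lowest for 13.6%. For some of the results below, though not for all that it touches, the value without it is also given. In such bulk samples, fewer cells of a type and less RNA per cell cannot be told apart.

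Stretches of 160 bases just before the start site are shown for members on which the results turn: Isg15 as a typical type I induced gene, Ifit1 and Ifit1bl2 because they are neighbours with different values, and Ifi208 and Ifitm6 as members with large differences. They come from RefSeq on GRCm38.p6 and are written 5′ to 3′ on the strand of the gene: Isg15 on the minus strand at chr4:156200819-156200978, Ifit1 on the plus strand at chr19:34640729-34640888, Ifit1bl2 on the minus strand at chr19:34640744-34640903, Ifi208 on the plus strand at chr1:173673505-173673664 and Ifitm6 on the minus strand at chr7:141016893-141017052. Capitals mark matches to the ISRE core, GAAA and GAAA with 2 bases of any kind (NN) between them, or to the GAS motif TTCNNNGAA, searched on both strands, where neighbouring matches may overlap.
Isg15: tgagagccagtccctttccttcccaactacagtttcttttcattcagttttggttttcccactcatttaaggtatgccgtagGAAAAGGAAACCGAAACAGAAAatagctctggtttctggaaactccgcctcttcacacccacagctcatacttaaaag
Ifit1: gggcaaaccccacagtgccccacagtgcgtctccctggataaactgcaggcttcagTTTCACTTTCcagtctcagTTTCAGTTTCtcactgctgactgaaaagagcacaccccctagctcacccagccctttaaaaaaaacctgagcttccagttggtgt
Ifit1bl2: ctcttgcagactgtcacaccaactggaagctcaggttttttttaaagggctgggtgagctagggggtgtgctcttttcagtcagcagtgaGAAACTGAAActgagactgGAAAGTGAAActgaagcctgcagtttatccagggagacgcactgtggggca
Ifi208: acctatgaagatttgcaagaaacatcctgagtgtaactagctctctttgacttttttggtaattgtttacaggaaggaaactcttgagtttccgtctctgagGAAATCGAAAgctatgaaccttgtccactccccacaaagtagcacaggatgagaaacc
Ifitm6: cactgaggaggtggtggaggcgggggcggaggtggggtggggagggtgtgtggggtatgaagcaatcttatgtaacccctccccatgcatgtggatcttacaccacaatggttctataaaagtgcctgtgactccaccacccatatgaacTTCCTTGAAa
Isg15 carried 3 overlapping ISRE cores, and Ifit1 and Ifit1bl2 carried the same pair, read from opposite strands. Ifi208 carried an ISRE core and Ifitm6 a GAS motif.

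In windows from 250 bases before to 50 bases after the start site, an ISRE core was found in 27 of the 52 members with a RefSeq window (51.9%) and in 3.99% of 27025 genes. A GAS motif was found in 12 members (23.1%) and in 9.55% of all genes. Of the members induced by type I interferon, 8 of 14 with a window held an ISRE core and 3 a GAS motif. Of those induced by type II interferon, 5 of 8 held an ISRE core and 4 a GAS motif. The grouping of the members by inducer follows general knowledge of these genes, and many respond to both kinds of interferon. Members with no window included Gbp4, Gbp6, Gbp8, Gbp9, Gbp10, Ifi204, Ifi27, Ifi27l2a, Ifi27l2b, Oas1d, Oas1e, Oas2 and Usp18. Of the members that passed the test below, 3 of 7 held an ISRE core and 2 a GAS motif. A match describes letters in a window, not a site in use.

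Most of these genes were at similar levels in Abcc4-/- and WT. Of 58 members tested, 4 were higher and 4 lower in Abcc4-/- at an adjusted p below 0.05 (edgeR quasi-likelihood test, adjusted over all 16493 genes). Those 8 are 13.8% of the members tested, against 17.3% of all genes tested, of which 8.61% were higher and 8.68% lower, so the members were not called more often than other genes. At an unadjusted p below 0.05 in the same test there were 17 of the 58 members and 5092 of the 16493 genes. The median log2 fold change was -0.03 over the members and 0.00 over all genes. All 3 Abcc4-/- libraries lay above all 3 WT libraries for 8 members and below them for 9 (18.4% and 18.3% of all genes). Those that rose were Ifit1bl2, Ifitm6, Ifitm10 and Ifi27, and those that fell were Ifi208, Ifi205, Ifit2 and Irf5. Only 1 of the 8, Ifit2, belongs to the type I group (5.88% of that group called, against 17.3% of all genes). None belongs to the type II group. Mx1 and Mx2, type I induced genes left out of the members by their biotype, also fell and are described below.

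**Figure D1:**
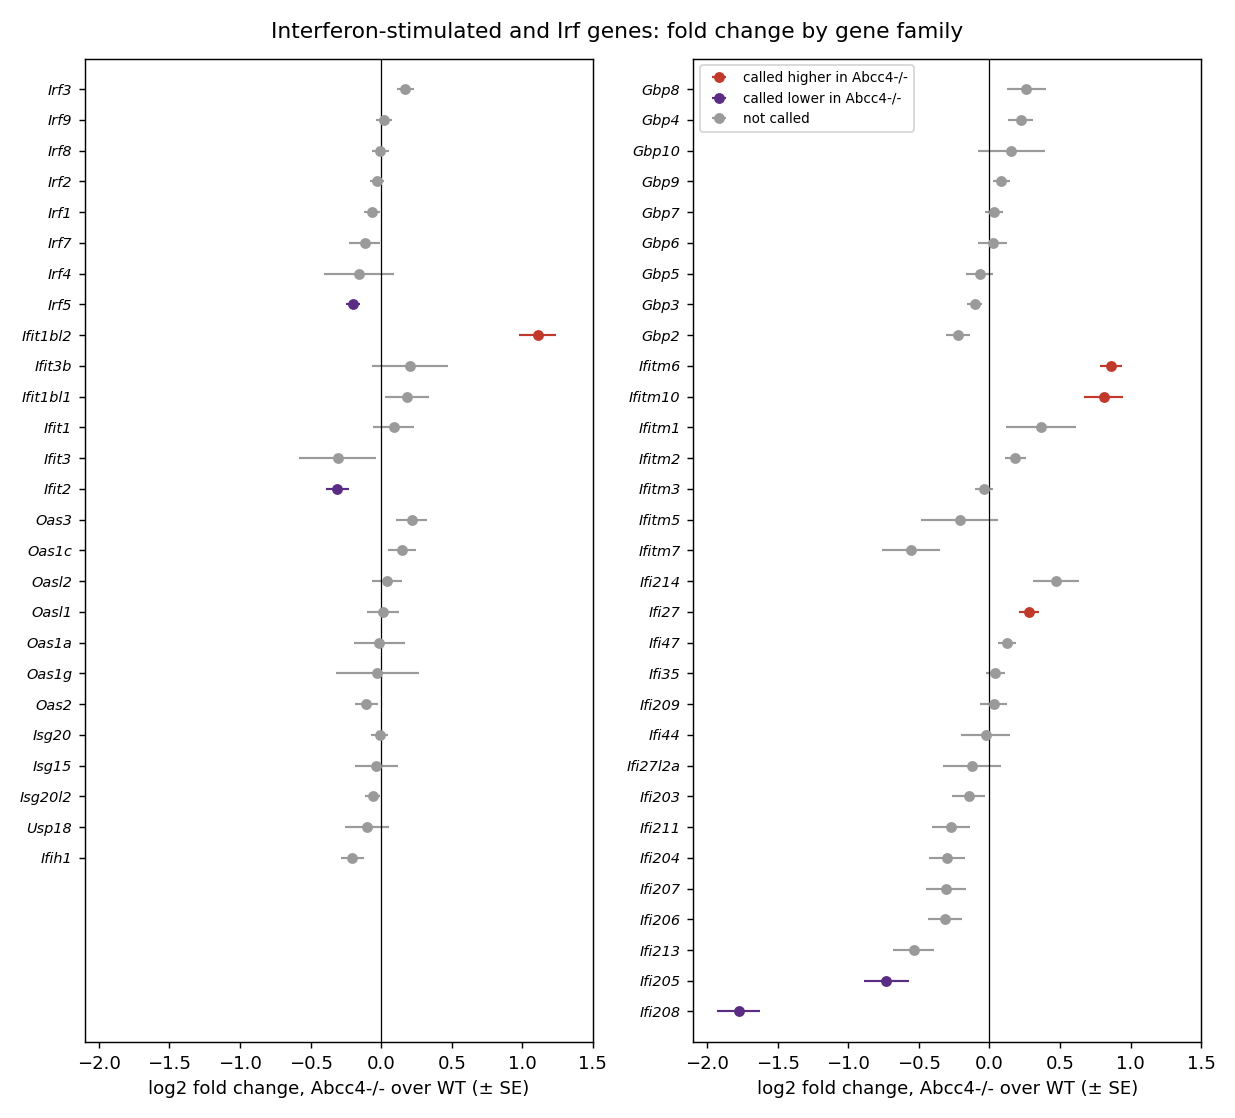
Log2 fold change (Abcc4-/- over WT, points with standard errors) of members tested, ordered by gene family. Red points passed as higher and purple points as lower in Abcc4-/- (4 each), and the grey points, which include every Oas, Isg and Gbp gene tested, did not pass.

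**Figure D2:**
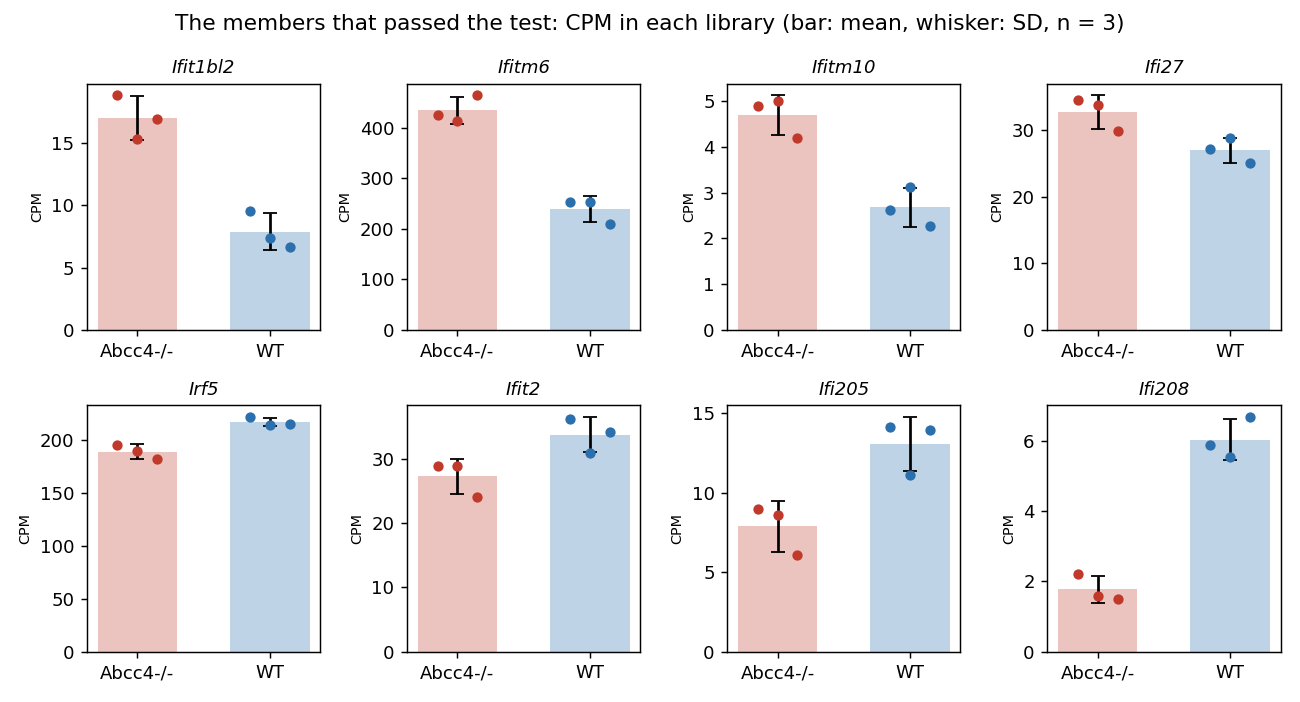
CPM of the 8 members that passed, with Abcc4-/- on the left of each panel and WT on the right; points are libraries, bars are means and whiskers are SD (n = 3). The groups do not overlap in any of these panels, and the fold change is largest for Ifi208 (-1.78 on the log2 scale) and Ifit1bl2 (1.11).

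Of the Irf transcription factors, Irf5 fell and the other 8 did not pass. Irf5, which drives inflammatory cytokine genes downstream of Toll-like receptors, had 196, 189.6 and 182 CPM in the Abcc4-/- libraries and 222, 215 and 215 CPM in the WT libraries. Its groups did not overlap, and the difference was small (log2 fold change -0.20, SE 0.05; edgeR, adjusted p = 0.0181). The call was lost without WT replicate 1 (adjusted p = 0.0653), Abcc4-/- replicate 2 (0.0710) or Abcc4-/- replicate 3 (0.0859). The 10 markers of monocytes and macrophages, cells that express Irf5, summed to 4466 to 4944 CPM in Abcc4-/- and 4630.3 to 5301 CPM in WT. Of them, 2 were lower and 0 higher (20% called, near the 17.3% of all genes). Their part in the value of Irf5 was not tested.

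Irf8, a factor needed for monocytes and dendritic cells, was the most abundant Irf per transcript length, at 305 TPM on average over the 6 libraries (TPM scales counts by transcript length). Irf5 followed at 140.4 TPM, then Irf7 at 86.8, Irf3 at 78.2, Irf1 at 76.4, Irf9 at 71.0, Irf2 at 69.2 and Irf4 at 24.4 TPM. Irf8 had 618, 575 and 536 CPM in Abcc4-/- and 601, 563 and 571 CPM in WT, with a log2 fold change of 0.00 (SE 0.06; edgeR, adjusted p = 0.971). Its groups overlapped, and Abcc4-/- replicate 3 was the lowest library.

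Irf3 and Irf7 switch on interferon genes after viral nucleic acid is sensed. Irf3 had 65.6, 70.0 and 66.1 CPM in Abcc4-/- and 57.1, 64.8 and 57.3 CPM in WT, groups that did not overlap, and did not pass (log2 fold change 0.17; edgeR, adjusted p = 0.0743). Irf7, itself induced by type I interferon, had 106, 107 and 81.8 CPM in Abcc4-/- and 115, 98.5 and 107 CPM in WT (log2 fold change -0.12; adjusted p = 0.537). Abcc4-/- replicate 3 was the lowest of the 6 for Irf7, and the other 2 Abcc4-/- libraries lay within the WT range. Irf3 passed without WT replicate 2 (adjusted p = 0.0213), with the replicate number as a block (0.0324) and with no filter on low counts (0.0305).

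Irf1, an activator that type II interferon induces, averaged 97.2 ± 3.88 CPM in Abcc4-/- and 101.7 ± 5.87 CPM in WT (SD, n = 3; edgeR, adjusted p = 0.485). Irf2, which competes with Irf1 for the same sites, averaged 93.4 ± 2.38 CPM in Abcc4-/- and 95.4 ± 4.31 CPM in WT (adjusted p = 0.736). Irf9, the DNA-binding part of the type I response complex, averaged 109 ± 5.16 CPM in Abcc4-/- and 108 ± 5.67 CPM in WT (adjusted p = 0.855). These 3 factors differed by less than the spread between libraries. Irf9 lies on chromosome 14, as does Abcc4, at 55603571 to 55610030 of GRCm38 against 118482692 to 118706219. Irf4, a factor of lymphocytes, varied among WT libraries, with 89.6, 77.4 and 68.2 CPM in Abcc4-/- against 65.7, 81.2 and 116 CPM in WT (log2 fold change -0.16; adjusted p = 0.729).

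The Ifit genes lie side by side on chromosome 19 and encode antiviral RNA-binding proteins. Ifit1bl2, an Ifit1-like gene at 34617049 to 34640743 of GRCm38, rose 2.16-fold. It had 18.8, 15.3 and 16.9 CPM in Abcc4-/- against 9.53, 7.37 and 6.67 CPM in WT, so that the lowest Abcc4-/- library lay well above the highest WT library (log2 fold change 1.11, SE 0.13; edgeR, adjusted p = 0.000941). Its neighbour Ifit1, at 34640871 to 34650009, did not pass, with 14.4, 14.5 and 9.92 CPM in Abcc4-/- and 12.9, 11.2 and 12.3 CPM in WT (log2 fold change 0.09, SE 0.15; adjusted p = 0.736). Their RefSeq start sites face away from each other with 145 bases between them, whereas the gene positions given here are from GENCODE. These 145 bases are in both stretches printed above, with both ISRE cores. Ifit1bl2 has a second RefSeq start site whose window holds neither motif. The ratio of Ifit1bl2 to Ifit1 CPM was 1.31, 1.06 and 1.71 in Abcc4-/- and 0.740, 0.655 and 0.541 in WT, higher in each Abcc4-/- library than in any WT library. An exact permutation test of the log2 ratio over the 6 libraries gave p = 0.1. This is the smallest p possible with 3 libraries per group, and the pair was picked for this difference, so the test cannot decide. Of the 100-base stretches of Ifit1bl2 transcripts, 2.91% also occur in another gene's transcripts, most of them in Ifit1. Summed over Ifit1, Ifit1bl1 and Ifit1bl2, the log2 fold change was 0.52 (adjusted p = 0.00751).

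Ifit2, which opens the cluster at 34550694 to 34576419, fell to 28.8, 28.9 and 24.0 CPM in Abcc4-/-, against 36.2, 30.8 and 34.2 CPM in WT (log2 fold change -0.31, SE 0.08; edgeR, adjusted p = 0.0282). The highest Abcc4-/- library lay just under the lowest WT library. Its call was lost without WT replicate 1 (adjusted p = 0.0884), WT replicate 3 (0.0966), Abcc4-/- replicate 1 (0.0535) or Abcc4-/- replicate 3 (0.0680). Ifit3 had 25.2, 25.6 and 14.03 CPM in Abcc4-/- and 30.3, 24.2 and 25.6 CPM in WT (log2 fold change -0.31; adjusted p = 0.523), and Abcc4-/- replicate 3 alone was far below the rest. Ifit3b, its near copy, stood at a log2 fold change of 0.21 (adjusted p = 0.672) and Ifit1bl1 at 0.18 (0.468). Since 31.7% of the 100-base stretches of Ifit3 transcripts also occur in Ifit3b, how reads of this pair were shared out is uncertain; summed, they stood at -0.16 (adjusted p = 0.762).

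**Figure D3:**
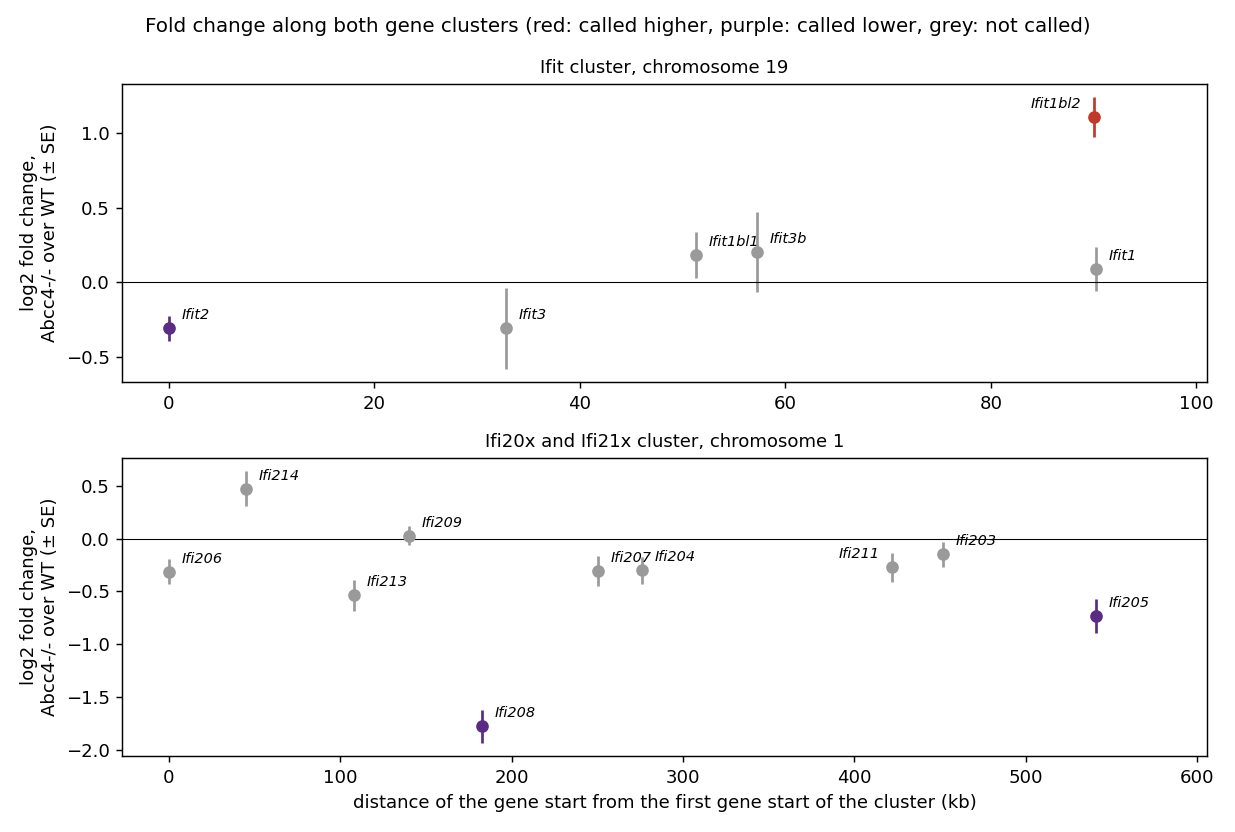
Log2 fold change (Abcc4-/- over WT, with standard errors) against the distance of each gene start from the first of its cluster in kb, for the Ifit genes on chromosome 19 (top) and the Ifi20x and Ifi21x genes on chromosome 1 (bottom). Ifit1bl2 (1.11) and Ifit1 (0.09) share a position on this scale and differ in height, and Ifi208 (-1.78) stands below its neighbours.

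No Oas gene passed. These enzymes make the oligoadenylate that activates the nuclease RNase L, and 7 of 11 members could be tested, with log2 fold changes between -0.10 and 0.22. Oas3 had 117, 115.5 and 93.8 CPM in Abcc4-/- and 105, 82.7 and 93.3 CPM in WT (log2 fold change 0.22; edgeR, adjusted p = 0.237). Oasl2 had 96.8, 101 and 83.5 CPM in Abcc4-/- and 103, 79.4 and 90.8 CPM in WT (0.04; adjusted p = 0.832). Oas1a had 54.0, 48.7 and 34.4 CPM in Abcc4-/- and 50.2, 43.6 and 44.4 CPM in WT (-0.01; adjusted p = 0.974). In these 3 genes the groups overlapped, and Abcc4-/- replicate 3 was the lowest Abcc4-/- library. Oas3 passed without Abcc4-/- replicate 3 (adjusted p = 0.0388). Oas1a shares 40.9% of its 100-base stretches with Oas1g, and the sum of both stood at -0.01 (adjusted p = 0.973).

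The ubiquitin-like modifier gene Isg15 had 15.5, 16.5 and 11.2 CPM in Abcc4-/- and 16.4, 13.4 and 14.3 CPM in WT (log2 fold change -0.03, SE 0.15; edgeR, adjusted p = 0.917). Usp18, which removes Isg15 from proteins and restrains the type I receptor, had 21.2, 19.6 and 14.2 CPM in Abcc4-/- and 21.1, 18.0 and 19.8 CPM in WT (-0.10; adjusted p = 0.717). Both genes repeat the pattern of Oas1a: 2 Abcc4-/- libraries within or above the WT range and replicate 3 below it. The exonuclease gene Isg20 averaged 14.3 ± 0.259 CPM in Abcc4-/- and 14.4 ± 0.646 CPM in WT (SD, n = 3; adjusted p = 0.936), and Isg20l2 averaged 61.4 ± 2.63 CPM in Abcc4-/- and 64.0 ± 1.99 CPM in WT (adjusted p = 0.477). Ifih1, which encodes the RNA sensor MDA5, averaged 34.3 ± 3.12 CPM in Abcc4-/- and 39.5 ± 3.36 CPM in WT (log2 fold change -0.20; adjusted p = 0.110). It passed without WT replicate 2 (adjusted p = 0.0392) and with no filter on low counts (0.0409).

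The type I members moved together between libraries of the same genotype. For each gene, the log2 CPM of each library was set against the mean of the WT libraries, and the median was taken over the 17 type I members tested. This median was 0.12, 0.07 and -0.38 in Abcc4-/- replicates 1, 2 and 3, against 0.12, -0.12 and 0.00 in WT replicates 1, 2 and 3. Abcc4-/- replicate 3 was thus low, while the other 2 Abcc4-/- libraries lay within the WT range. It was the lowest of the 6 libraries for 14 of the 17 genes and for 6 of the 12 type II members tested. The 17 genes summed to 710, 690.4 and 534 CPM in Abcc4-/- and 726, 604 and 654 CPM in WT. This pattern was picked after the values were seen and is a description of these libraries.

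**Figure D4:**
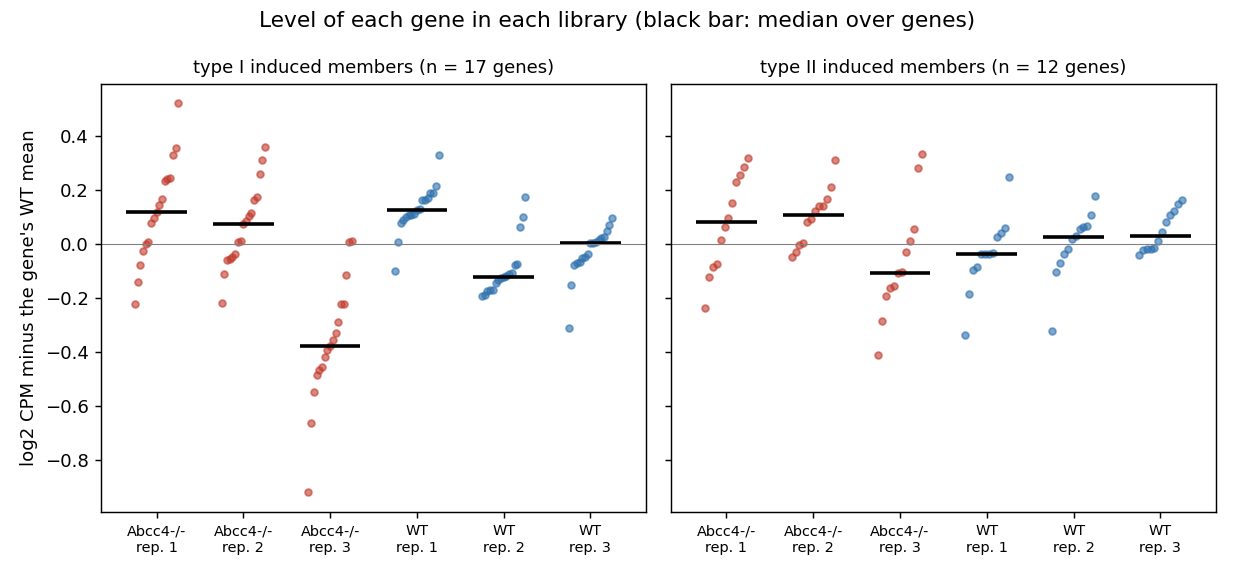
Log2 CPM of each gene minus its WT mean, by library (Abcc4-/- replicates 1 to 3, then WT replicates 1 to 3), for the 17 type I members (left) and the 12 type II members (right); points are genes and black bars medians. The type I median stands at -0.38 in Abcc4-/- replicate 3 and between -0.12 and 0.12 in the other 5 libraries, while the type II medians stay between -0.11 and 0.11.

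Neither group of members moved as a whole between the genotypes. Of the 17 type I members, 1 was lower, 0 higher and 16 not called (5.88% called, against 17.3% of all genes). Mx1 and Mx2, which both fell, are not among these members. The median log2 fold change over the 17 was -0.03. It turned to 0.12 without Abcc4-/- replicate 3 and to -0.15 without Abcc4-/- replicate 1. Of the 12 type II members tested, 0 were called and 2 had an unadjusted p below 0.05, as did 5092 of all 16493 genes. The type II median was 0.03. It turned to -0.01 without WT replicate 2 and to -0.095 on the log2(TPM + 1) scale, where the median of all genes also stood at -0.06. By library, the type II median was 0.08, 0.11 and -0.11 in Abcc4-/- replicates 1, 2 and 3, against -0.04, 0.02 and 0.03 in WT replicates 1, 2 and 3. The type I median minus the type II median was 0.04, -0.03 and -0.27 in Abcc4-/- and 0.16, -0.15 and -0.03 in WT, so the genotypes overlapped. The difference between the groups was not tested, since the lists were drawn up with results of these data known.

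The Gbp genes, GTPases induced foremost by type II interferon, lie in clusters on chromosomes 3 and 5. None of the 9 tested passed, with log2 fold changes between -0.22 and 0.26. Gbp3 had 39.0, 41.5 and 37.9 CPM in Abcc4-/- and 43.6, 41.9 and 41.8 CPM in WT (log2 fold change -0.10; edgeR, adjusted p = 0.211). Gbp7 had 36.7, 38.4 and 36.6 CPM in Abcc4-/- and 35.3, 33.7 and 40.2 CPM in WT (0.03; adjusted p = 0.796). Gbp9 had 31.2, 32.9 and 31.0 CPM in Abcc4-/- and 29.2, 28.4 and 32.1 CPM in WT (0.08; adjusted p = 0.382). Gbp3 was marginally lower in all Abcc4-/- libraries, and the groups overlapped for Gbp7 and Gbp9. Gbp2 was also lower in all Abcc4-/- libraries without passing, at 23.3, 26.6 and 20.7 CPM in Abcc4-/- and 27.96, 27.9 and 26.7 CPM in WT (-0.22; adjusted p = 0.0909). It passed without Abcc4-/- replicate 2 (adjusted p = 0.0208), with the replicate number as a block (0.0328) and with no filter on low counts (0.0277). Gbp4 and Gbp8 were higher in all Abcc4-/- libraries than in any WT library, without passing (0.22 and 0.26; adjusted p = 0.104 and 0.228). Gbp4 passed with no filter on low counts (0.0443). The gene models of Gbp4, Gbp8 and Gbp9 overlap in the annotation, and 73.5% of the stretches of Gbp10 and 64.5% of those of Gbp6 occur in other genes, so values of single genes there are uncertain. The interferon-gamma-inducible GTPase gene Ifi47 averaged 67.9 ± 6.16 CPM in Abcc4-/- and 62.3 ± 2.33 CPM in WT (0.12; adjusted p = 0.232).

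The Ifitm genes encode small membrane proteins, of which Ifitm1, Ifitm2 and Ifitm3 keep viruses from fusing with cells, and they include the most abundant members per transcript length. Over the 6 libraries Ifitm3 averaged 1104 TPM, Ifitm6 937 TPM, Ifitm2 811 TPM and Ifitm1 345 TPM. Ifitm6, a relative of these on chromosome 7 at 141015699 to 141017924, rose 1.82-fold. It had 425, 414.5 and 464.5 CPM in Abcc4-/- against 254, 253.5 and 210.2 CPM in WT, far apart (log2 fold change 0.86, SE 0.08; edgeR, adjusted p = 6e-05). Ifitm3, whose gene lies next to it, had 413, 419 and 369 CPM in Abcc4-/- and 435.5, 406 and 391 CPM in WT, with overlapping groups (-0.04, SE 0.06; adjusted p = 0.741). Ifitm2 had 276, 309 and 323 CPM in Abcc4-/- and 285, 271.5 and 243 CPM in WT (0.18; adjusted p = 0.116), and passed with no filter on low counts (0.0328). Of the Ifitm2 stretches, 34.9% occur in other genes, mostly Gm45717; Ifitm6 and Ifitm3 share none. Mouse Ifitm6 is known from myeloid cells. The 10 neutrophil markers, none of them at 0, summed to 38363 to 40962 CPM in Abcc4-/- and 21700.2 to 28269.5 CPM in WT. Of these markers 7 were higher and 1 was lower (80% called, against 17.3% of all genes), and their part in the value of Ifitm6 was not tested.

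Ifitm10, a divergent family member at 142325837 to 142373753, rose 1.75-fold from a low level. It had 4.89, 4.995 and 4.20 CPM in Abcc4-/- and 2.62, 3.13 and 2.28 CPM in WT, without overlap (log2 fold change 0.81, SE 0.14; edgeR, adjusted p = 0.0024). Ifitm1 varied between Abcc4-/- libraries, with 90.0, 137 and 165 CPM in Abcc4-/- and 91.4, 109 and 104 CPM in WT (0.36, SE 0.25; adjusted p = 0.401). Without Abcc4-/- replicate 1 it passed (adjusted p = 0.0126). Here Abcc4-/- replicate 3 was the highest library, unlike in the type I members. Ifitm5, known from bone-forming cells, averaged 0.450 ± 0.147 CPM in Abcc4-/- and 0.524 ± 0.0355 CPM in WT (SD, n = 3; adjusted p = 0.651). Ifitm7 averaged 0.718 ± 0.114 CPM in Abcc4-/- and 1.06 ± 0.159 CPM in WT (adjusted p = 0.0903).

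The Ifi20x and Ifi21x genes form a row on chromosome 1 and encode proteins with a DNA-binding HIN domain, some of them sensors of DNA. Of 10 tested, 2 fell, 0 rose and 8 were not called (20% called, near the 17.3% of all genes), with a median log2 fold change of -0.30. Ifi208, at 173673675 to 173698395, fell the most of all members, to 0.292 times the WT level. It had 2.20, 1.59 and 1.51 CPM in Abcc4-/- and 5.88, 5.54 and 6.67 CPM in WT, with a wide gap (log2 fold change -1.78, SE 0.15; edgeR, adjusted p = 2.47e-05). Ifi205, at the far end of the row at 174011998 to 174031810, fell to 9.01, 8.59 and 6.07 CPM in Abcc4-/-, against 14.1, 11.1 and 13.98 CPM in WT (-0.73, SE 0.16; adjusted p = 0.0209). Its groups did not overlap, and the call was lost without WT replicate 1 (adjusted p = 0.0622) or WT replicate 3 (0.0820) and with no filter on low counts (0.0563).

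The 3 most abundant genes of the row did not pass the edgeR test. Ifi209 had 242, 216 and 193 CPM in Abcc4-/- and 212, 193 and 234 CPM in WT (log2 fold change 0.03; edgeR, adjusted p = 0.876). Ifi203 had 165, 163.5 and 137 CPM in Abcc4-/- and 171, 147 and 197 CPM in WT (-0.15; adjusted p = 0.457). Ifi204, which senses DNA in mouse macrophages, had 92.7, 90.0 and 70.5 CPM in Abcc4-/- and 110, 89.7 and 112 CPM in WT (-0.30; adjusted p = 0.177), and passed as lower with DESeq2 (0.0358). All 3 overlapped between genotypes. Ifi213 lay just outside the threshold (-0.54, SE 0.15; adjusted p = 0.0509). It had 16.6, 16.4 and 11.98 CPM in Abcc4-/- and 21.6, 18.98 and 24.6 CPM in WT, groups that did not overlap. It passed as lower in 10 of 17 alternatives, with DESeq2 and limma-voom among them, and its adjusted p ranged from 0.000568 to 0.200. Ifi214 stood at 0.47 (adjusted p = 0.0740), and passed with no filter on low counts (0.0184) and without WT replicate 2 (0.0465). Ifi206, Ifi207 and Ifi211 stood at -0.32, -0.31 and -0.27 (adjusted p = 0.107, 0.200 and 0.226), and Ifi207 passed as lower with DESeq2 (0.0446) and without WT replicate 2 (0.0369). These neighbours share sequence: 15% of the stretches of Ifi205 occur in other genes, 56.9% of those of Ifi211 and 5.92% of those of Ifi208. Summed over the row, the log2 fold change was -0.17 (adjusted p = 0.335).

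Of the remaining Ifi genes, Ifi27 rose 1.21-fold. It had 34.6, 33.7 and 29.8 CPM in Abcc4-/- and 27.1, 28.8 and 25.1 CPM in WT (log2 fold change 0.28, SE 0.07; edgeR, adjusted p = 0.0204). The gap between the groups was small, and the call was lost without WT replicate 3 (adjusted p = 0.0535), Abcc4-/- replicate 1 (0.0875) or Abcc4-/- replicate 2 (0.0808). Its neighbour Ifi27l2a, a type I induced gene at 401 TPM on average, had 96.5, 82.4 and 58.7 CPM in Abcc4-/- and 96.0, 81.4 and 81.3 CPM in WT (-0.12; adjusted p = 0.741). Abcc4-/- replicate 3 again stood below the rest. Ifi35 and Ifi44 stood at 0.04 and -0.03 (adjusted p = 0.720 and 0.942).

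The 8 members that were not tested were Gbp2b, with 5 to 11 counts per library, and Ifi202b, Ifi27l2b, Ifi44l, Oas1d, Oas1e, Oas1f and Oas1h, with 0 or 1 count in each. A further 7 genes match the symbols and carry another biotype in the table. Among them were the GTPase genes Mx1 and Mx2, known as broken alleles in many laboratory mice and listed as polymorphic pseudogenes. Mx1 fell to 35.1, 37.4 and 31.1 CPM in Abcc4-/-, against 43.6, 40.0 and 46.8 CPM in WT (log2 fold change -0.33, SE 0.08; edgeR, adjusted p = 0.0143), and lost its call without Abcc4-/- replicate 1 (0.0549) and with the replicate number as a block (0.0518). Mx2 fell to 6.19 ± 0.187 CPM in Abcc4-/-, against 7.84 ± 1.03 CPM in WT (SD, n = 3; adjusted p = 0.0392), and lost its call when thinned to the smallest library (0.0516) and when WT replicate 1, WT replicate 3 or any Abcc4-/- replicate was left out (0.0691 to 0.138). Oas1b, listed likewise, rose to 5.67, 5.54 and 4.86 CPM in Abcc4-/-, against 3.00, 3.33 and 3.60 CPM in WT (0.69, SE 0.12; adjusted p = 0.00211). The lysosomal reductase gene Ifi30, listed as a long non-coding RNA, averaged 210.3 ± 5.96 CPM in Abcc4-/- and 210.5 ± 2.09 CPM in WT (adjusted p = 0.987).

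The wider pathway was read from lists of 96 other genes, of which 76 were tested. Of these, 7 rose and 9 fell in Abcc4-/-, 21.1% against 17.3% of all genes. Of 20 ligand genes, Ifng, which encodes interferon gamma, had enough counts for a test. Ifng had 0.996, 0.496 and 0.508 CPM in Abcc4-/- and 1.47, 1.93 and 1.23 CPM in WT, low in all libraries and lower in each Abcc4-/- library (log2 fold change -1.23; edgeR, adjusted p = 0.0154). It lost its call without WT replicate 2 (0.0541) or Abcc4-/- replicate 2 (0.0616). T cells and natural killer cells make interferon gamma. The 7 T cell markers summed to 48.7 to 61.0 CPM in Abcc4-/- and 35.4 to 42.6 CPM in WT, with 5 higher and 0 lower (71.4% called). The 6 natural killer markers summed to 108.5 to 120.4 CPM in Abcc4-/- and 95.6 to 119.7 CPM in WT, with 3 higher and 0 lower (50% called, where 17.3% of all genes were). None of these markers was at 0, and their part in the value of Ifng was not tested. The other 19 ligand genes, Ifnb1 and the Ifna genes among them, had too few counts for a test, and 16 of them had none in any library.

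Of 6 receptor genes, 3 rose and 0 fell, where 8.61% of all genes rose. Ifnlr1, the specific receptor chain for lambda interferons, rose to 30.8, 31.6 and 32.1 CPM in Abcc4-/-, against 19.5, 17.8 and 16.0 CPM in WT (1.77-fold, log2 fold change 0.83; edgeR, adjusted p = 2.31e-05). The gap was wide and the call held without each library. Its partner chain Il10rb rose 1.15-fold (adjusted p = 0.0204), and lost its call on both TPM scales (0.146 and 0.147) and when WT replicate 2 or any Abcc4-/- replicate was left out (0.0533 to 0.0653). Ifngr2, the signalling chain for interferon gamma, rose to 98.3 ± 1.13 CPM in Abcc4-/-, against 81.2 ± 4.66 CPM in WT (SD, n = 3; adjusted p = 0.00482). The ligand-binding chain Ifngr1 averaged 237 ± 5.51 CPM in Abcc4-/- and 260.1 ± 14.1 CPM in WT (adjusted p = 0.123), and passed as lower on both TPM scales (0.0131 and 0.0116). Ifnar1 and Ifnar2 stood at 0.01 and -0.02 on the log2 scale (adjusted p = 0.955 and 0.831), and Ifnar2 passed as lower on both TPM scales (0.0320 and 0.0311). On log2(TPM + 1) and log2(TPM + 0.1) the median over all genes was itself below 0 (-0.06 and -0.08), and most genes called were lower.

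Among the JAK and STAT genes, 2 kinases fell by small amounts, where 8.68% of all genes fell. Tyk2, a kinase of the type I receptor, averaged 128 ± 5.63 CPM in Abcc4-/- and 146 ± 3.77 CPM in WT (SD, n = 3; edgeR, adjusted p = 0.0253). Jak2, a kinase of the interferon gamma receptor, averaged 131 ± 1.96 CPM in Abcc4-/- and 155 ± 15.5 CPM in WT (adjusted p = 0.0286). Both lost their calls without some libraries, Tyk2 without WT replicate 1 or any Abcc4-/- replicate (0.0527 to 0.0942) and Jak2 without WT replicate 3 or any Abcc4-/- replicate (0.0519 to 0.107). Jak1, Stat2 and Stat3 did not pass (log2 fold changes 0.08, -0.04 and 0.14; adjusted p = 0.314, 0.682 and 0.121).

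Of 14 sensors and adaptors, 1 rose and 2 fell (21.4% called, near the 17.3% of all genes). Tlr3, a sensor of double-stranded RNA, fell to 1.49, 1.96 and 1.46 CPM in Abcc4-/-, against 2.58, 2.90 and 2.43 CPM in WT (log2 fold change -0.68; edgeR, adjusted p = 0.0131), and lost its call without Abcc4-/- replicate 1 (0.0559) and on log2(TPM + 0.1) (0.0534). Its adaptor Ticam1 fell slightly (log2 fold change -0.19; adjusted p = 0.0445), and the call was lost in 10 of 18 alternatives (0.0520 to 0.134), among them those that left out WT replicate 1, WT replicate 3 or any Abcc4-/- replicate. The Toll-like receptor adaptor Myd88 rose by 0.20 (adjusted p = 0.0194), and lost its call without WT replicate 2, Abcc4-/- replicate 2 or Abcc4-/- replicate 3 (0.0528 to 0.0779) and on both TPM scales (0.162 and 0.160). Of 7 genes that restrain signalling, 1 rose and 0 fell (14.3% called, near the 17.3% of all genes). The phosphatase gene Ptpn6 rose to 486 ± 9.05 CPM in Abcc4-/-, against 412 ± 20.9 CPM in WT (adjusted p = 0.0129; 0.0569 without Abcc4-/- replicate 2). Socs1 and Socs3 did not pass (0.03 and 0.07; adjusted p = 0.908 and 0.928). Without Abcc4-/- replicate 3, Socs3 turned to -0.35 and passed as lower (adjusted p = 0.0295).

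Of 20 other type I induced genes tested, 1 rose and 0 fell (5%, against 17.3% of all genes), with a median log2 fold change of -0.01. Trim21, an antibody receptor in the cytosol, rose to 28.7 ± 1.24 CPM in Abcc4-/-, against 23.5 ± 0.719 CPM in WT (SD, n = 3; edgeR, adjusted p = 0.00539), and lost its call on both TPM scales (0.293 and 0.291). The other 19 include Rsad2, Bst2 and Eif2ak2 (log2 fold changes -0.14, 0.03 and 0.16; adjusted p = 0.687, 0.860 and 0.0959), of which Eif2ak2 passed without WT replicate 3 (0.0186). Rtp4 and Cmpk2 passed as higher without Abcc4-/- replicate 3 (0.00226 and 0.0125), Cmpk2 also with no filter on low counts (0.0235). Phf11d and Lgals3bp passed as lower with DESeq2 (0.00876 and 0.0203) and in some other alternatives. Trim25 passed as lower without WT replicate 2 (0.0490).

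Among 22 type II induced genes outside the member families, 4 fell and 1 rose (22.7% called, near the 17.3% of all genes), and their median log2 fold change was -0.02. The chemokine genes Cxcl9 and Cxcl10, which draw T cells to sites of interferon gamma, were lower. Cxcl9 had 1.04, 1.09 and 0.817 CPM in Abcc4-/- and 2.31, 2.72 and 1.49 CPM in WT (log2 fold change -1.14; edgeR, adjusted p = 0.00571). Cxcl10 had 4.15, 4.58 and 2.77 CPM in Abcc4-/- and 9.22, 7.43 and 6.85 CPM in WT (-1.03; adjusted p = 0.0092). Neither gene overlapped between genotypes, and both kept their calls without each library. Cd274, which encodes the immune checkpoint ligand PD-L1, fell to 15.2 ± 0.525 CPM in Abcc4-/-, against 21.8 ± 1.95 CPM in WT (SD, n = 3; log2 fold change -0.52; adjusted p = 0.000696). Ciita, the master regulator of class II antigen presentation, fell by 0.27 (adjusted p = 0.0178), and lost its call without WT replicate 2 (0.0647), Abcc4-/- replicate 1 (0.0579) or Abcc4-/- replicate 2 (0.0822). The GTPase gene Irgm2 rose to 32.3, 36.4 and 29.7 CPM in Abcc4-/-, against 20.9, 22.2 and 21.1 CPM in WT (0.62; adjusted p = 0.000281). The antigen-processing genes Tap1, Psmb8 and Psmb9 and the class I gene H2-K1 did not pass (-0.04, 0.10, 0.14 and -0.13; adjusted p = 0.718, 0.350, 0.218 and 0.350).

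**Figure D5:**
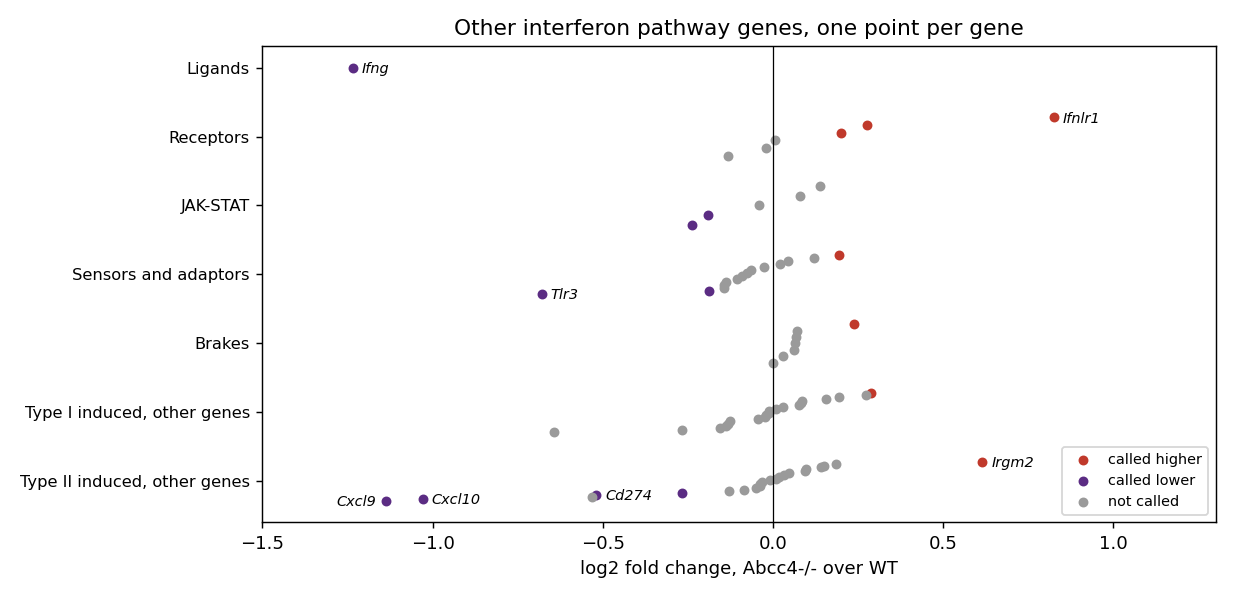
Log2 fold change (Abcc4-/- over WT) of other pathway genes tested, in rows by role; each point is a gene, red for higher, purple for lower and grey for not called. Most points of the type I row lie near 0, while Ifng (-1.23), Cxcl9 (-1.14) and Cxcl10 (-1.03) lie far to the left and Ifnlr1 (0.83) far to the right.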

How the data were processed

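RNA-seq libraries of 3 Abcc4-/- and 3 WT samples came from total RNA through a TruSeq Stranded mRNA kit, with sequencing in paired-end mode, per the labels' protocols. The submitters' processing notes name STAR 2.7, RSEM 1.3.1 and mm10, with no annotation release. The authors deposited expected counts per gene, not normalized, and TPM, scaled by length and within each sample. Groups came from the labelled genotype and replicate numbers from the titles. Every sample column was mapped, and the 92 spike-in entries were left out.

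After rounding, the expected counts of the whole table entered the robust quasi-likelihood test of edgeR 4.0.16 in R 4.3.3, with TMM scaling and the default filter on low counts. This left 16493 genes, and p-values were adjusted over all of them (Benjamini-Hochberg; called below 0.05). CPM use TMM library sizes. Library log2 CPM use a prior count of 2. The test was checked on simulated counts with larger changes than many reported here, so that check does not cover calls of small changes. Each count gives counting precision only, since the labels name no molecular identifiers. The members, lists, groups and the rule for naming genes were chosen with earlier results of these data known. Named genes were every member called, every Irf gene, the 3 most abundant members of each family, all receptor and JAK-STAT genes and up to 5 called genes of each other list; other genes were named after their values were seen, and some genes that the rule names are not reported here. All 66 members had a position in GENCODE M21 (GRCm38), whose transcripts gave the share of 100-base stretches found in other genes. RefSeq windows (GRCm38.p6) matched 52 members. Alternatives were RLE and upper quartile scaling, DESeq2 1.42.0, limma-voom (limma 3.58.1) and edgeR without robust estimation. Others were a filter of at least 1 CPM in 3 samples, no filter, and the replicate number as a block. Limma was also run on log2(TPM + 1) and log2(TPM + 0.1), which understate changes of low genes. The rest were thinning to the smallest library total, sums over related genes of a family, and each library left out.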

Additional observations from a re-analysis of the deposited data

How the results depend on the processing

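Of the 8 members called, Ifit1bl2, Ifitm6, Ifitm10 and Ifi208 kept their calls in every alternative that gave them a value, and Ifi27, Ifi205, Ifit2 and Irf5 lost theirs in at least 1. The count of members higher was 4, and 3 to 6 when 1 library was left out; it was 8 with no filter on low counts. The count of members lower was 4, and 1 to 7 when 1 library was left out. It was 7 with DESeq2 and 2 with related genes summed. That setting turns the Ifi20x and Ifi21x row into 1 value, although Ifi208 shares 5.92% of its 100-base stretches with other genes. All genes called numbered 2852, and 1760 to 2415 when 1 library was left out (1821 without Abcc4-/- replicate 1 and 1760 without Abcc4-/- replicate 2). Other pathway genes called numbered 16, and 9 to 16 when 1 library was left out. The type II median of 0.03 became -0.095 on log2(TPM + 1) and -0.11 on log2(TPM + 0.1), where calls over all genes split into 599 higher and 1512 lower on log2(TPM + 1), against 1420 and 1432 in the count test; with 1 library left out it ranged from -0.01 to 0.07, and the type I median from -0.15 to 0.12. Socs3, not called at 0.07, ranged from -0.35 to 0.24 and was called as lower without Abcc4-/- replicate 3; the cause was not tested.

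The replicate numbers did not pair the samples: deviations of same-numbered samples correlated at -0.05, -0.03 and -0.01 across genes. With the replicate block, 3157 genes were called, 5 members higher and 5 lower, and 16 other pathway genes; the type I and type II medians were -0.05 and 0.03. Gbp2b and the other 7 members not tested had too few counts for the filter.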
